A study of Mus musculus with 2 samples.

Results

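Axon guidance genes of the semaphorin, plexin, neuropilin, Eph, ephrin and netrin families were examined in single-nucleus RNA-seq of the mouse retina at postnatal day 21. Members were chosen by gene symbol (Sema3 to Sema7, Plxna to Plxnd, Nrp1 and Nrp2, Epha and Ephb, Efna and Efnb, Ntn, Ntng, Unc5a to Unc5d, and Dcc). These symbols matched 67 of the 32227 genes in the count matrices, of which 64 are protein-coding and 3 are transcripts on the opposite strand of Plxna4 (Plxna4os1 to Plxna4os3). The Cre- library came from whole retinas of C57 BL/6J control mice, bred from Cre- parents, whose genotype is given as WT. The Tet tcKO library came from whole retinas of mice of the same strain and age with loxp alleles of Tet1, Tet2 and Tet3, deleted by the Chx10-Cre-GFP transgene. This transgene is active in retinal progenitor cells and is mosaic, for which the study in-crossed Cre+ animals. Each genotype had 1 library, in which nuclei of 2 dissociation pools were combined without a record of the pool of a nucleus. There was therefore no test between genotypes, genotype cannot be told apart from the preparation of a library, and every interval below covers counting error only.

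Semaphorins are secreted or membrane-bound ligands that signal through plexins, with neuropilins as co-receptors for most secreted members. Eph receptors are receptor tyrosine kinases whose ephrin ligands are themselves bound to membranes, so that signals pass between touching cells in both directions. Netrins attract growing axons through Dcc and repel them through Unc5 receptors. In the retina these families guide retinal ganglion cell (RGC) axons to the optic disc and to their targets in the brain, and confine neurites to layers of the inner plexiform layer.

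Members that were at least 2-fold higher in Tet tcKO over all nuclei were Epha10, Efnb2 and Plxna3, and Unc5c came next. Their promoters are shown because TET enzymes act on methylated cytosine at CG dinucleotides, and the 4 windows differ widely in CG content. Each runs from 250 bases before to 50 bases after the start of the gene's canonical transcript in GENCODE vM39 on GRCm39, and capitals mark every CG. Methylation was not measured in these libraries.
Epha10 (chr4:124774442-124774741, + strand): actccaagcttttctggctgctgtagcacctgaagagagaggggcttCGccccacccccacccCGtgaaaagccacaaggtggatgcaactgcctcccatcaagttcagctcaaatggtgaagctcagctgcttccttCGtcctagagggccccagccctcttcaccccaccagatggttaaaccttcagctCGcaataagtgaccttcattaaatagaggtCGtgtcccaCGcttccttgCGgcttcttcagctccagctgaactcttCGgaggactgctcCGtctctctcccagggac
Efnb2 (chr8:8711200-8711499, - strand): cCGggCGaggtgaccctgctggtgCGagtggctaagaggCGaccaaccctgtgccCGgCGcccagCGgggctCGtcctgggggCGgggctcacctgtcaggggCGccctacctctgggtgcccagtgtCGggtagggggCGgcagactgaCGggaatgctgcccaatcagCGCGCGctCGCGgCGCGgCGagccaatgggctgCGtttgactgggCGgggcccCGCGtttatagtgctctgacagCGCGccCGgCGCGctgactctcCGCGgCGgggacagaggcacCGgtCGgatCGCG
Plxna3 (chrX:73372422-73372721, + strand): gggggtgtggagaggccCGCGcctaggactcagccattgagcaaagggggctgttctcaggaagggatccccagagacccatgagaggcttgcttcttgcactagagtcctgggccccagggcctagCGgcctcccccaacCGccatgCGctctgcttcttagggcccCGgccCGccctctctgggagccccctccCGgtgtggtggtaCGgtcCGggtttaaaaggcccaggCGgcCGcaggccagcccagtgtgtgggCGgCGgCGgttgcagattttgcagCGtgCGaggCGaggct
Unc5c (chr3:141170727-141171026, + strand): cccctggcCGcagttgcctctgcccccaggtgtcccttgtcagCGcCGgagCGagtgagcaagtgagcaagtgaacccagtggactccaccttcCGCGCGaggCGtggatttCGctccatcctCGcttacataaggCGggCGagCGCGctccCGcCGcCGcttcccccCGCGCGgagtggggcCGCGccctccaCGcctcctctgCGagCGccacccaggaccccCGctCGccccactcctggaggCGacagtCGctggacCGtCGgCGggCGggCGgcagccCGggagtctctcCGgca
The Epha10 window held 9 CG, the Plxna3 window 18, the Unc5c window 36 and the Efnb2 window 37. Across 21757 promoters of the same length the median was 11 CG, with quartiles of 4 and 21, and 94.9% held at least 1. The 64 protein-coding members had a median of 17. The motif TAATCC, searched on both strands as a core of photoreceptor homeobox binding sites, was found in 7.71% of all promoters and in 1 of the 64 members (Unc5a), and in none of these 4 windows.

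The Cre- library held 7357 nuclei and 11510585 UMIs, and the Tet tcKO library 6766 nuclei and 16590747 UMIs. Nuclei of the Tet tcKO library were deeper (median of 1836.5 against 1107 UMIs), and their share of UMIs from 13 mitochondrial genes was lower (1.76% against 5.47%). The libraries shared 1 cell barcode. The 10 rod markers summed to 9669 UMIs per 1000000 (CPM) over all Cre- nuclei and to 4353 CPM over all Tet tcKO nuclei, and none of them was at 0 in either library. Among the targeted genes, Tet1 stood at 50.2 CPM in Cre- and 61.2 in Tet tcKO, Tet2 at 105 and 139, and Tet3 at 180 and 174. Whole-gene counts of a conditional allele do not show whether the deleted part is present, so they check neither the deletion nor the labels.

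The annotated classes differed in size between the libraries. The Cre- library held 5214 nuclei annotated as rods and 265 as cones, and the Tet tcKO library held 6 and 3225. Bipolar nuclei numbered 674 and 1649, amacrine 403 and 1043, RGCs 567 and 704, Müller glia 144 and 102, and horizontal cells 90 and 37. Amacrine, RGC and horizontal clusters passed a check against class markers. A cluster with 0 markers among its 10 leading genes also passed, as amacrine clusters 12 and 27 and RGC cluster 8 did. Amacrine markers summed to 2369 CPM in Cre- and 2615 in Tet tcKO amacrine nuclei, against 1093 and 1457 CPM over all nuclei. RGC markers summed to 1620 and 1543 CPM in RGCs, against 562 and 423 CPM over all nuclei. In contrast, 4 of 15 rod, 1 of 9 cone, 3 of 9 bipolar and 2 of 3 Müller clusters did not pass the check, so these names are the deposited annotation only. The cone cluster that did not pass (cluster 11) held 264 of the 265 Cre- cones. Rod markers summed to 15118 CPM and cone markers to 2066 CPM in Cre- cones, against 6864 and 6490 CPM in Tet tcKO cones. The median depth of these nuclei was 3736 UMIs in Cre- and 1715 in Tet tcKO.

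Guidance transcripts made up a larger share of the Tet tcKO library. Members gave 48026 of all Cre- UMIs (0.417%, exact binomial 95% interval 0.414 to 0.421) and 91957 of all Tet tcKO UMIs (0.554%, 0.551 to 0.558). A gene was counted as tested where it reached 10 CPM in at least 1 library and 20 UMIs in both together, and as called where the libraries also differed by at least 2-fold. Over all nuclei 47 of 67 members were tested. The remaining 20 comprised 17 protein-coding members, none above 9.22 CPM in either library, and the 3 Plxna4 opposite-strand transcripts, and no member was at 0 in both libraries. Of the 47, 3 were called higher in Tet tcKO and 0 lower, where 3.18% of the 11158 genes tested were called higher and 2.48% lower. The log2 ratio of Tet tcKO over Cre- was above 0 for 34 members and below 0 for 13, with intervals that excluded 0 for 30 and 9 of them. Their median log2 ratio was 0.37, beside 0.15 for all genes tested, 64.1% of which had a ratio above 0. In sums over all nuclei, fewer cells of a type and less RNA per cell cannot be told apart. With the class shares of Cre- given to both libraries, the members' median was 0.29, beside 0.19 for all genes, so the 2 medians lay closer together. The same number of members, 3 higher and 0 lower, was called, a count that stands without the share of all genes called in that setting.

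**Figure D1:**
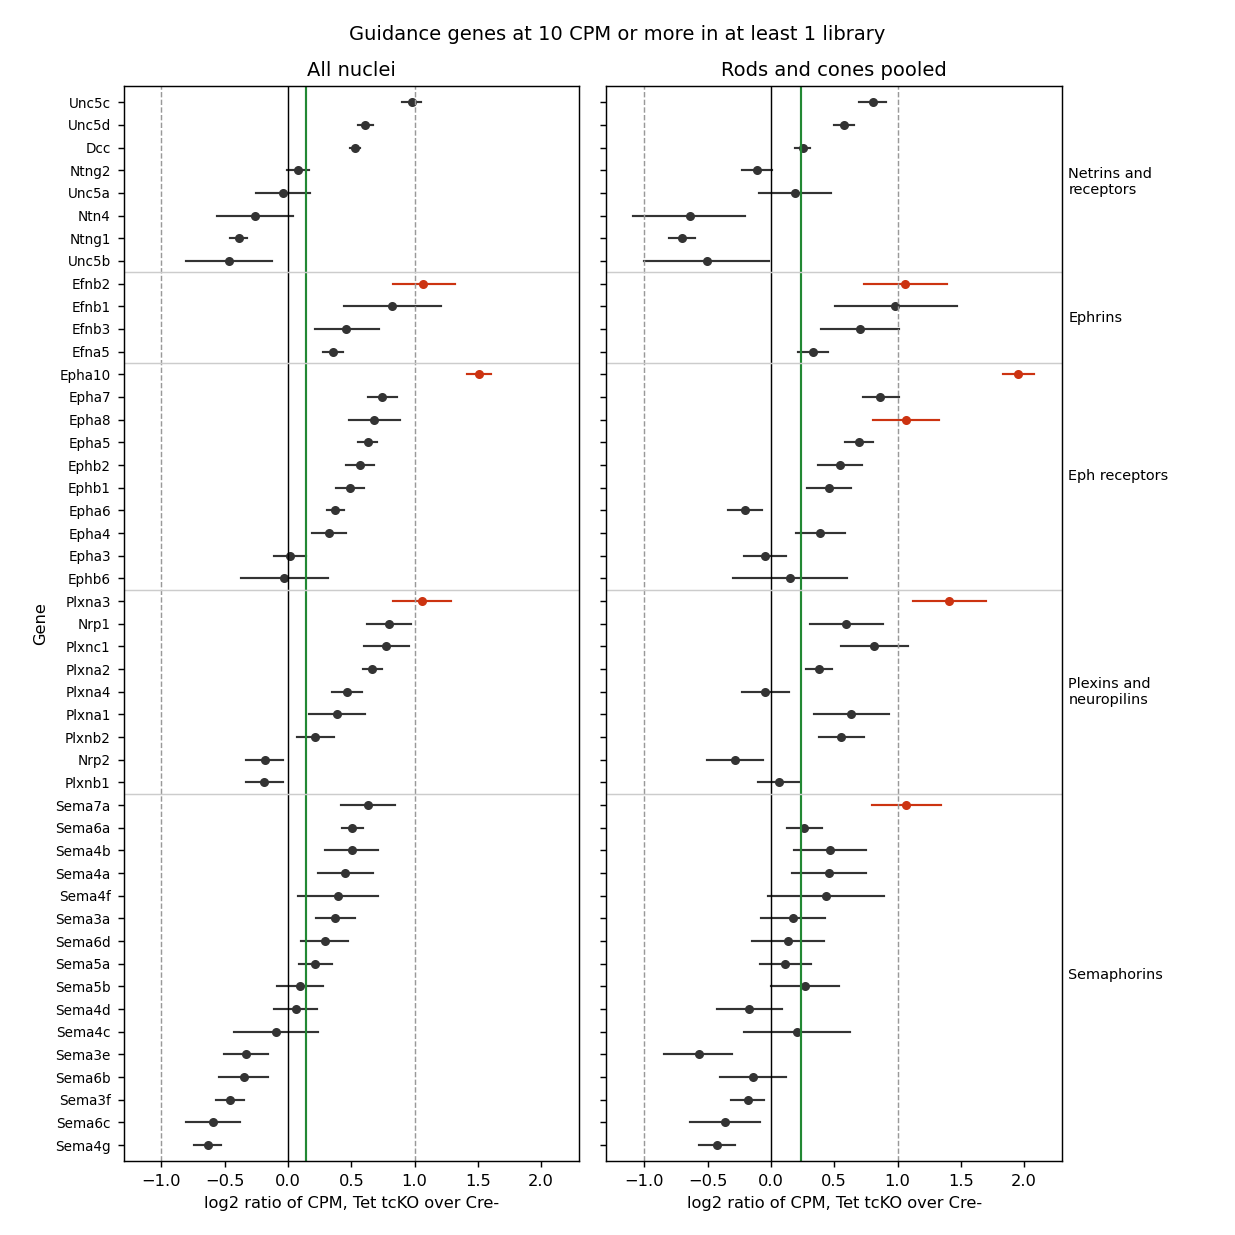
Log2 ratio of Tet tcKO over Cre- (x axis) of the tested members (y axis), over all nuclei and over rods and cones pooled, with exact 95% counting intervals as bars. Red points were at least 2-fold higher, dashed lines mark 2-fold and the green line the median of all genes tested. Over all nuclei Epha10 stands furthest to the right at 1.51 and Sema4g furthest to the left at -0.63.

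Among semaphorins, 16 of 20 members were tested over all nuclei and none was called. Sema7a, a membrane-anchored ligand of Plxnc1, had the highest log2 ratio of the named semaphorins, with a level of 23.5 CPM in the Cre- library and 36.5 CPM in Tet tcKO (log2 ratio 0.63, interval 0.42 to 0.84). Sema6a, a transmembrane ligand of Plxna2 and Plxna4 that shapes inner retinal layers, stood at 143 and 204 CPM (log2 0.51, 0.42 to 0.59). Sema5a and Sema5b, which confine inner retinal neurites through Plxna1 and Plxna3, differed less. Sema5a stood at 65.4 and 76.0 CPM and Sema5b at 35.5 and 37.8 CPM, and the interval of Sema5b included 0. The class 3 semaphorins are secreted, and 3 of 7 were tested, with a median log2 ratio of -0.33. Their ratios ran from -0.46 to 0.37, with intervals below 0 for 2 and above it for 1. Among them, Sema3e, the ligand of Plxnd1 in retinal vessels, stood at 45.4 CPM in the Cre- library and 36.1 CPM in Tet tcKO (log2 -0.33, -0.50 to -0.16). The lowest ratio of any tested member was that of Sema4g, a transmembrane class 4 semaphorin, at 131 CPM in the Cre- library and 84.2 CPM in Tet tcKO (log2 -0.63, -0.74 to -0.53). Sema4g overlaps Mrpl43 on the other strand, which had 152 and 200 UMIs beside 1503 and 1397 of Sema4g, and no source used here gives the strand setting of the counting.

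Of 9 plexins, 7 were tested over all nuclei and 1 was called, higher in Tet tcKO. Their median log2 ratio was 0.47, beside 0.15 for all genes tested, and intervals lay above 0 for 6 and below it for 1. The plexin called was Plxna3, a receptor that acts with neuropilins and for class 5 semaphorins. It had 214 UMIs in Cre- (18.6 CPM) and 641 in Tet tcKO (38.6 CPM), a log2 ratio of 1.06 (0.83 to 1.29), which was 0.95 with TMM or median-of-ratios factors. Plxnc1 stood at 32.1 and 54.8 CPM (log2 0.77, 0.60 to 0.95). Plxna2, the Sema6a receptor of starburst amacrine cells, stood at 179 and 284 CPM (log2 0.66, 0.59 to 0.74). Plxna4 stood at 75.3 and 104 CPM (log2 0.47) and Plxna1 at 22.8 and 29.8 CPM (log2 0.39). Plxnd1 had 49 UMIs in each library and was not tested. The co-receptor Nrp1, which also binds vascular endothelial growth factor, stood at 34.4 and 59.7 CPM (log2 0.80, 0.63 to 0.97).

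Among Eph receptors, Epha10 had the largest ratio of all members. Epha10, an Eph receptor without an active kinase, had 1201 UMIs in Cre- (104 CPM) and 4923 in Tet tcKO (297 CPM), a log2 ratio of 1.51 (1.42 to 1.60). The gene lies at chr4:124774692-124811594 on the + strand of GRCm39. Of the genes overlapping it on the other strand, 1700125G02Rik had at most 3 UMIs in a library, and Gm70061 was not among the counted genes. All 7 tested EphA receptors had a ratio above 0, 6 of them with an interval above 0, and their median was 0.63. Epha7 stood at 78.6 and 132 CPM (log2 0.75, 0.63 to 0.86). Epha5, a receptor of the retinotopic map, stood at 182 and 282 CPM (log2 0.63, 0.56 to 0.71). Of the EphB receptors 3 of 5 were tested. Ephb1, which turns RGC axons at the optic chiasm towards the same side of the brain, stood at 90.7 and 127 CPM (log2 0.49, 0.38 to 0.60). Ephb2 stood at 85.6 and 127 CPM (log2 0.57, 0.46 to 0.68).

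All 3 ephrin-B ligands were tested and 1, Efnb2, was called higher in Tet tcKO, while 4 of the 5 ephrin-A ligands were too low to test. The median log2 ratio of the 3 ephrin-B genes, which is the value of Efnb1, was 0.82, beside 0.15 for all genes tested. Each had an interval above 0. Efnb2, the midline ligand of Ephb1 at the chiasm, had 188 UMIs in Cre- (16.3 CPM) and 569 in Tet tcKO (34.3 CPM), a log2 ratio of 1.07 (0.83 to 1.32), which was under 2-fold with TMM (0.97) and median-of-ratios factors (0.96). Efnb1 stood at 7.04 and 12.4 CPM (log2 0.82, 0.44 to 1.21). It reached the minimum of 10 CPM only in Tet tcKO, so it was tested through the library where it was higher. Efna5, a ligand of Epha5 that is graded across visual targets, stood at 177 and 227 CPM (log2 0.36, 0.28 to 0.44).

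No netrin, netrin-G or netrin receptor gene was called over all nuclei. Of 5 netrin receptors, all tested, 3 had an interval above 0 and 1 below it, with a median log2 ratio of 0.53. Unc5c, a repulsive netrin receptor, had 2069 UMIs in Cre- (180 CPM) and 5869 in Tet tcKO (354 CPM), a log2 ratio of 0.98 (0.90 to 1.05), just under 2-fold. Unc5d stood at 287 and 438 CPM (log2 0.61, 0.55 to 0.67). Dcc, the attractive netrin receptor, stood at 636 and 919 CPM (log2 0.53, 0.49 to 0.57). Unc5b, a receptor of vascular cells as well as neurons, stood at 12.3 and 8.92 CPM (log2 -0.47, -0.81 to -0.13). Ntng1 encodes a membrane-anchored netrin-G that does not bind Dcc, and stood at 308 CPM in the Cre- library and 235 CPM in Tet tcKO (log2 -0.39, -0.45 to -0.32). Ntng2 stood at 155 and 163 CPM, with an interval of -0.01 to 0.16. Ntn1, the secreted ligand that Dcc reads at the optic disc, had 24 and 25 UMIs and was not tested. Ntng2 overlaps 6530402F18Rik on the same strand, which had 139 and 264 UMIs beside 1780 and 2703 of Ntng2.

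In nuclei annotated as rods or cones, Epha10 and Plxna3 had larger ratios than over all nuclei. Rods and cones were pooled, so that 5479 Cre- nuclei, nearly all annotated as rods, were set beside 3231 Tet tcKO nuclei, nearly all annotated as cones. Here the difference between the libraries cannot be told apart from that between the annotated types. Of 48 members tested, 5 were called higher and 0 lower, where 6.67% of 11377 genes were called higher and 2.58% lower. The members' median log2 ratio was 0.30, beside 0.23 for all genes tested. Epha10 had 687 UMIs in Cre- (90.7 CPM) and 2600 in Tet tcKO (351 CPM), a log2 ratio of 1.95 (1.83 to 2.08). Plxna3 stood at 18.9 and 50.1 CPM (log2 1.41, 1.13 to 1.70), and Sema7a at 22.3 and 46.8 CPM (log2 1.07, 0.80 to 1.34). Epha8, named after its values were seen, stood at 24.6 and 51.3 CPM (log2 1.06, 0.81 to 1.32). Efnb2 stood at 15.4 and 32.3 CPM (log2 1.06, 0.74 to 1.39). At the other end Ntng1 stood at 282 and 173 CPM (log2 -0.70, -0.80 to -0.60) and Sema3e at 38.5 and 25.9 CPM (log2 -0.57, -0.84 to -0.31). With size factors that centre all genes (TMM), only Epha10 and Plxna3 were called (2 members), where the median of all genes moved by -0.20. This count stands without the share of all genes called in that setting.

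The 5 members called higher in pooled rods and cones, and Ntng1 with the lowest ratio there, were also set out by photoreceptor cluster. There were 15 Cre- and 8 Tet tcKO clusters of at least 50 nuclei of that library, each with at most 2 nuclei of the other, and these are not replicates. Epha10 lay between 57.2 and 123 CPM in the Cre- clusters and between 195 and 401 CPM in the Tet tcKO clusters, with no overlap. Plxna3 ranged from 4.81 to 30.1 CPM in Cre- and from 22.7 to 68.1 CPM in Tet tcKO, and 7 of the 8 Tet tcKO clusters lay above every Cre- cluster. The same count, 7 of 8, held for Sema7a, Epha8 and Efnb2, and 7 of 8 Tet tcKO clusters lay below every Cre- cluster for Ntng1. As these genes were taken by their ratios in the same nuclei, the separation is a description only. The share of all genes that separate in this way was not counted. In cones of the annotation, Epha10 stood at 91.1 CPM in Cre- (exact Poisson interval 73.7 to 112) and at 351 CPM in Tet tcKO (338 to 365), with the cone and rod markers of these nuclei as given above. Without cluster 11, an alternative chosen after seeing the data, the ratio of Epha10 in pooled rods and cones was 1.95, and 6 members were called higher. The count of 6 stands without the share of all genes called in that setting.

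**Figure D2:**
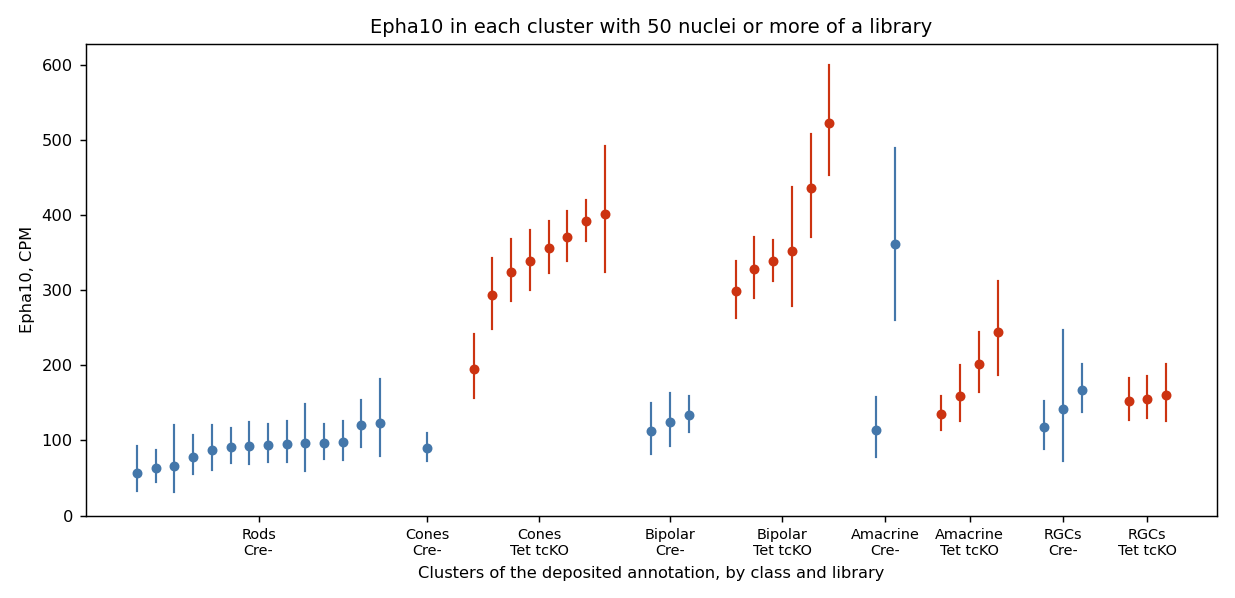
Epha10 transcript level in CPM (y axis) in each cluster of at least 50 nuclei, by annotated class and library, with exact 95% Poisson intervals. Among photoreceptors the Cre- clusters lie between 57.2 and 123 CPM and the Tet tcKO clusters between 195 and 401 CPM, and clusters annotated as bipolar, 3 of which did not pass the marker check in Tet tcKO, are separated in the same direction.

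In nuclei annotated as bipolar, Epha10 values are given by cluster, since the class did not pass the marker check. The 3 clusters mostly of Cre- nuclei (3, 4 and 7) stood at 133, 124 and 113 CPM in Cre-, and the 6 mostly of Tet tcKO nuclei ranged from 299 to 522 CPM in Tet tcKO. Of those 6, clusters 22, 39 and 41 did not pass, with the cone marker Cngb3 among the leading genes of 22 and 41, and Chat and Slc5a7 of starburst amacrine cells among those of 39. The 10 cone markers, all detected in both libraries, summed to 1778 CPM in the Cre- and 6272 CPM in the Tet tcKO bipolar nuclei, the latter beside 6490 CPM in Tet tcKO cones. The 10 bipolar markers, also all detected, summed to 5417 and 3197 CPM. The part of these transcripts in the Epha10 values was not tested. In amacrine cells Epha10 stood at 152 and 168 CPM (log2 0.14, -0.20 to 0.50), and in RGCs at 145 and 157 CPM (log2 0.11, -0.16 to 0.38). The intervals of both inner retinal classes lay below that of pooled rods and cones. The amacrine value depends on the mix of clusters, as cluster 13 gave 42 of the 85 Cre- UMIs of Epha10. Its Cre- nuclei (361 CPM) stood above its Tet tcKO nuclei (244 CPM), with overlapping intervals. Outside it the order was reversed. Cre- clusters 23, 24 and 27 spanned 63.9 to 118 CPM, on 2 to 34 UMIs each. Tet tcKO clusters 12, 23, 24 and 27 spanned 135 to 217 CPM. The class ratio thus does not show an unchanged Epha10 within amacrine clusters. The difference between classes was not tested, since each genotype had 1 library.

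Shares of nuclei gave the same order for Epha10. With each nucleus thinned to 500 UMIs, 4.31% of Cre- rods and cones had an Epha10 UMI (236 of 5479 nuclei, exact interval 3.79 to 4.88) and 16.2% of those in Tet tcKO (524 of 3231, 15.0 to 17.5). In RGCs the thinned shares were 7.23% (5.24 to 9.68) and 7.67% (5.82 to 9.89). Plxna3 was found in 0.675% and 2.41% of thinned rods and cones, and in 0.882% and 0.994% of RGCs. Efnb2 was found in 0.694% and 1.49% of rods and cones, and in 0.529% and 1.42% of RGCs. No class that should lack these genes was at hand, so the share that free RNA gives was not measured. Before thinning, the Epha10 shares of rods and cones were 11.5% and 51.1%, at median depths of 1046 and 1714 UMIs.

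**Figure D3:**
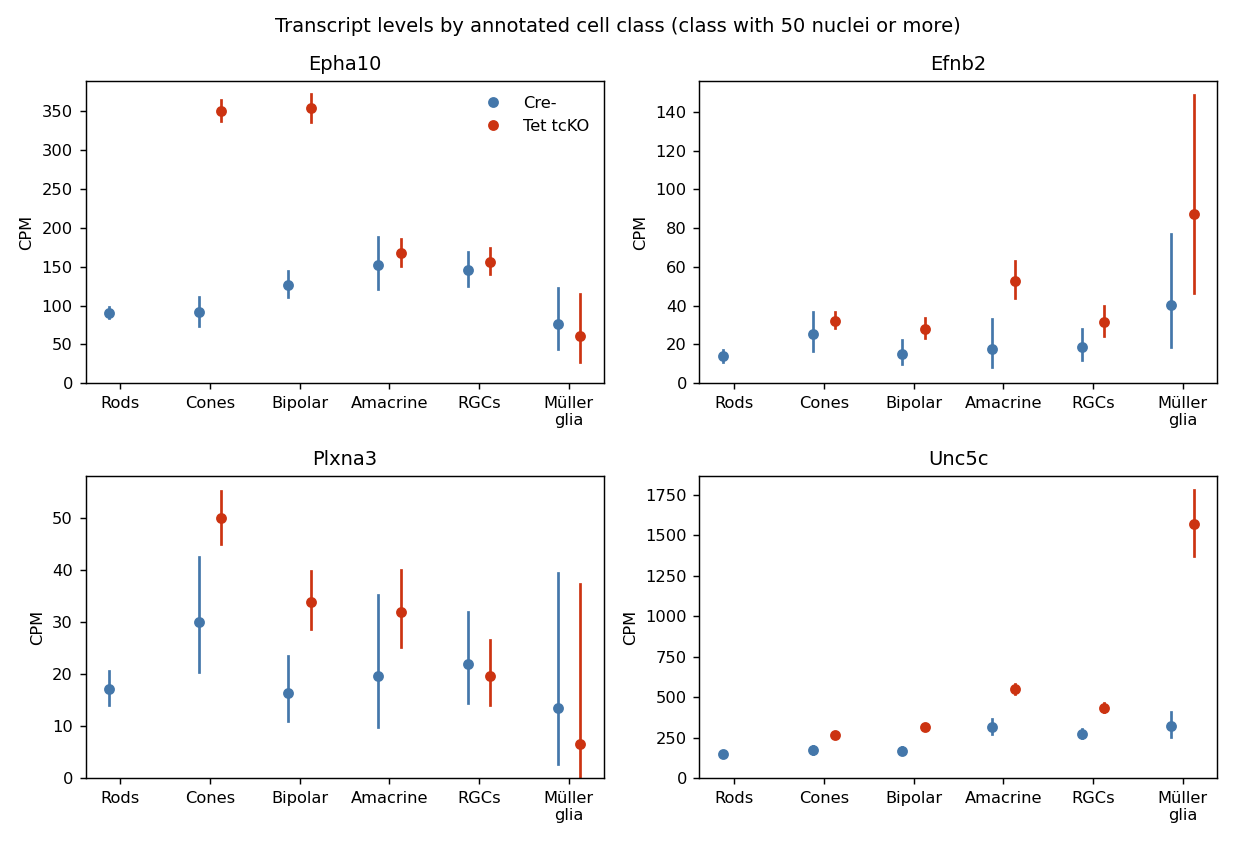
Transcript level in CPM (y axis) of Epha10, Efnb2, Plxna3 and Unc5c in annotated classes of at least 50 nuclei (x axis) in Cre- and Tet tcKO, with exact 95% Poisson intervals. Epha10 stands apart between the libraries in nuclei annotated as photoreceptors or bipolar cells, with cone markers at 1778 and 6272 CPM in the latter, and stands at 145 and 157 CPM in RGCs.

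Other members were called in amacrine cells. Of 47 members tested there, 3 were called higher and 2 lower, where 6.55% of 10640 genes were called higher and 4.92% lower, and the members' median was 0.16 beside 0.01 for all genes. Nrp1 had 8 UMIs in Cre- (14.3 CPM) and 158 in Tet tcKO (67.5 CPM), a log2 ratio of 2.24 (1.22 to 3.47). Epha7 had 17 and 234 UMIs (30.4 and 99.9 CPM, log2 1.71, 1.00 to 2.52). Efnb2 had 10 and 124 UMIs (17.9 and 52.9 CPM, log2 1.56, 0.64 to 2.66). In the other direction, Unc5b stood at 37.6 and 16.6 CPM (log2 -1.18, -1.98 to -0.34) and Sema4g at 220 and 110 CPM (log2 -1.01, -1.32 to -0.68). The 2-fold call of Sema4g was lost in 6 of 11 alternatives, among them both other scalings. Members under 2-fold with intervals above 0 included Sema6a (254 and 452 CPM), Dcc (657 and 1154 CPM), Unc5c (317 and 549 CPM) and Plxna2 (263 and 432 CPM).

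Different clusters held most amacrine nuclei of each library. Cluster 27 held 256 of the Cre- nuclei, and clusters 12, 24 and 23 held 357, 321 and 222 of those in Tet tcKO. Nrp1 stood at 9.99 CPM in Cre- cluster 27, on 3 UMIs, and at 80.6, 59.6 and 65.3 CPM in Tet tcKO clusters 12, 24 and 23. Rod markers in amacrine nuclei summed to 3131 CPM in the Cre- library and 1415 CPM in Tet tcKO, with 10 of 10 detected in both, and bipolar markers to 1715 and 1452 CPM. Cone markers in these nuclei summed to 845 CPM in Cre- and 2030 in Tet tcKO, with 10 of 10 detected in both. The part of these transcripts in the results on members was not tested.

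Cluster 13 is an amacrine cluster with nuclei of both libraries, 72 from Cre- and 122 from Tet tcKO. Chat, Slc5a7 and Megf11 of the starburst marker list were among its leading genes, so it is called starburst-like. Starburst amacrine cells release acetylcholine and shape direction selectivity, and their dendrites are patterned by Sema6a and Plxna2. Of 20 members tested, 6 were called higher and 0 lower, where 10.3% of 3893 genes were called higher and 8.94% lower. Plxna2 had 55 UMIs in Cre- (473 CPM) and 333 in Tet tcKO (1290 CPM), a log2 ratio of 1.45 (1.03 to 1.89), and it was 0.76, under 2-fold, where a nucleus counted a gene at most 1 time. Unc5c had 10 and 135 UMIs (86.0 and 523 CPM, log2 2.60, 1.68 to 3.70), of which 19 came from 1 Tet tcKO nucleus. Sema5a had 8 and 47 UMIs (68.8 and 182 CPM, log2 1.40, 0.31 to 2.70), and its ratio was 0.24 with nuclei thinned to 500 UMIs and 2.24 without the nucleus with the most Sema5a UMIs. The intervals of the other called members, Sema4d, Plxna4 and Ephb2, included 0, with 3, 5 and 8 UMIs in Cre-. Sema6a stood at 181 and 267 CPM (log2 0.57, -0.16 to 1.34). With nuclei thinned to 500 UMIs, 2 members were called, a count that stands without the share of all genes called in that setting.

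**Figure D4:**
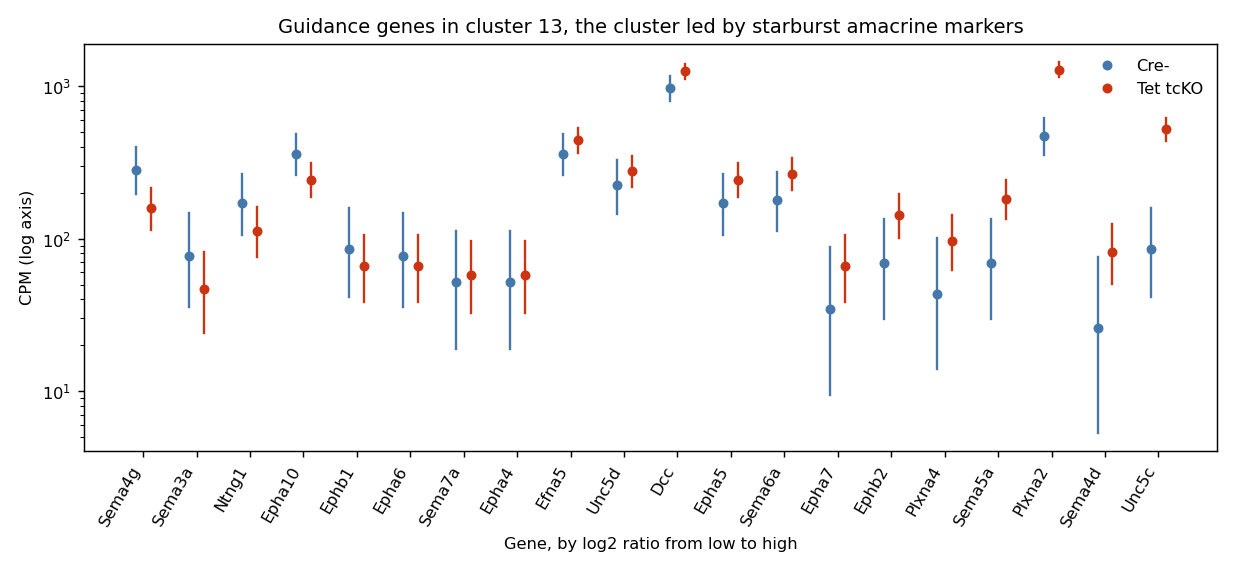
Transcript level in CPM (log axis) of the 20 members tested in cluster 13 in Cre- (72 nuclei) and Tet tcKO (122 nuclei), with exact 95% Poisson intervals. Plxna2 (473 and 1290 CPM) and Unc5c (86.0 and 523 CPM) have intervals that do not overlap between the libraries.

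RGCs held the highest level of many members. Of 43 members tested, 1 was called higher and 0 lower, where 3.53% of 10255 genes were called higher and 3.13% lower, and the members' median was 0.11 beside 0.02 for all genes. Intervals lay above 0 for 17 members and below it for 5. The called member was Efnb1, with 4 UMIs in Cre- and 24 in Tet tcKO (3.25 and 11.3 CPM, log2 1.79, 0.25 to 3.78). Here too it reached 10 CPM only in Tet tcKO, so it was tested through the library where it was higher. Dcc, on which RGC axons rely to leave the eye, stood at 1188 and 1804 CPM (log2 0.60, 0.52 to 0.69). Unc5c stood at 276 and 437 CPM (log2 0.67, 0.48 to 0.85) and Nrp1 at 129 and 179 CPM (log2 0.47, 0.20 to 0.74). In cluster 2, which held RGC nuclei of both libraries, Dcc stood at 1479 and 1552 CPM (log2 0.07, -0.06 to 0.20), Unc5c at 372 and 351 CPM (log2 -0.09, -0.36 to 0.19) and Nrp1 at 158 and 164 CPM (log2 0.05, -0.36 to 0.48). Over the class, Ephb1 stood at 267 and 251 CPM (log2 -0.09, -0.29 to 0.11), and Efna5 at 355 and 384 CPM, with an interval of -0.06 to 0.28. Ntng2 stood at 137 and 83.5 CPM (log2 -0.72, -1.03 to -0.41). Most Cre- RGC nuclei were in cluster 8 (394 nuclei) and most Tet tcKO nuclei in clusters 31, 15 and 2 (273, 217 and 185 nuclei).

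The 2 RGC clusters with at least 50 nuclei of each library gave few calls. In cluster 2 (111 and 185 nuclei), 0 of 36 members were called in either direction, where 5.28% of 8197 genes were called higher and 1.89% lower. In cluster 31 (58 and 273 nuclei), 1 of 28 members was called higher and 1 lower, where 12.2% of 5392 genes were called higher and 4.01% lower. The first was Epha7, on 1 UMI in Cre- and 25 in Tet tcKO, with an interval of -0.43 to 7.54. The second was Sema5a, at 141 and 64.3 CPM (log2 -1.14, -2.15 to -0.04).

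The class of the highest level was compared for each member on its own. Over 4 classes (pooled rods and cones, bipolar, amacrine and RGCs), 27 of the 47 members had their highest level in the same class in both libraries. RGCs were the top class of 19 members in Cre- and 14 in Tet tcKO, and amacrine cells of 16 and 15. Pooled rods and cones were the top class of 4 members in Cre- and of 12 in Tet tcKO. Top classes of all genes were not counted, so these counts do not set members apart from other genes. The median log2 ratio of all genes tested was 0.23 in pooled rods and cones, 0.01 in amacrine cells and 0.02 in RGCs. A member was said to lead a class where it had at least 20 UMIs there and a level at least 2-fold that of the next class, among classes of at least 50 nuclei, so that horizontal cells entered in Cre- and not in Tet tcKO. By this rule 2 members led a class in Cre- and 12 in Tet tcKO. Of these 12, 6 led Müller glia, where 2 of 3 clusters did not pass the marker check. With each gene counted once per nucleus, 5 members led a class in Tet tcKO. The share of all genes that lead a class was not counted, so these counts do not set members apart. Summed UMIs also differed between Cre- and Tet tcKO in RGCs (1230236 and 2132935), amacrine cells (558558 and 2342398) and Müller glia (222194 and 149231). Nrp1 led RGCs in both libraries (129 and 179 CPM), and Sema5b led Müller glia in both (140 and 194 CPM). In Tet tcKO, Ntng1, Sema3a and Sema3e also led RGCs, and so did Epha6 only because horizontal cells (37 nuclei, 1045 CPM) were left out. Epha6 and Sema3a are named after their values were seen. Epha6 stood at 1091 CPM in Tet tcKO RGCs and 278 CPM in amacrine cells, and in Cre- at 815 and 231 CPM in these classes, with 543 CPM in horizontal cells. Sema3e stood at 117 CPM in Tet tcKO RGCs and 27.7 CPM in bipolar cells, and in Cre- at 91.9 and 47.0 CPM.

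**Figure D5:**
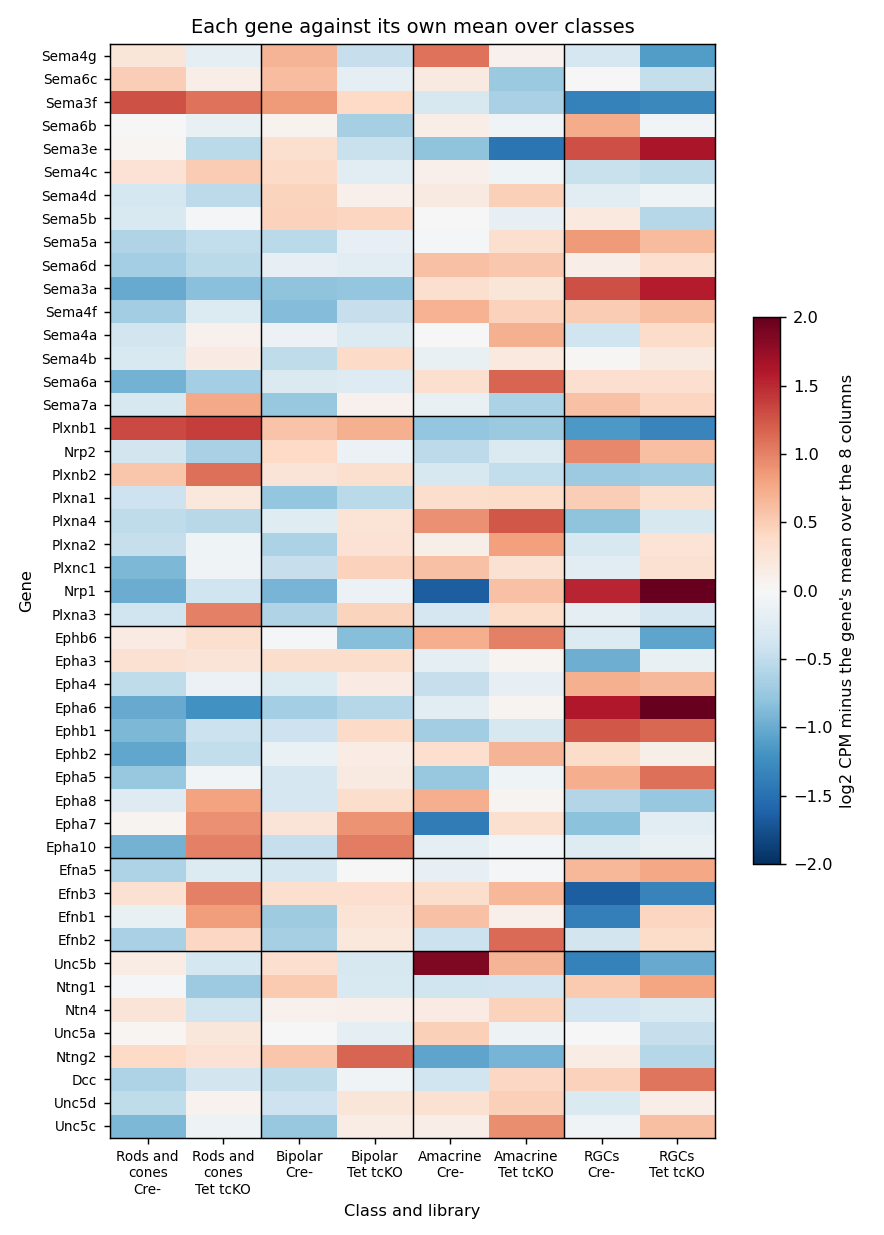
Log2 CPM of each member minus its own mean over the 8 columns (colour), for 4 annotated classes in Cre- and Tet tcKO, with counts under 3 set to 3. RGC and amacrine columns hold the highest level of most members in both libraries, and the pooled rod and cone column holds that of 4 members in Cre- and 12 in Tet tcKO. Top classes of all genes were not counted.

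Nuclei annotated as Müller glia gave high Unc5c values in Tet tcKO. Unc5c stood at 275 CPM in Cre- cluster 14 (99 nuclei) and 507 CPM in Cre- nuclei of cluster 30 (43 nuclei). It stood at 2296 CPM in Tet tcKO nuclei of cluster 30 (46 nuclei) and 967 CPM in cluster 37 (56 nuclei). Of these 3 clusters, 2 did not pass the marker check, and endothelial markers summed to 936 CPM in the Cre- library and 744 CPM in Tet tcKO Müller nuclei, so no comparison of the class was made.

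Long genes can give many UMIs from introns in nuclei, and a larger share of members than of all genes was long. Of the tested members, 14 of 47 (29.8%) spanned at least 200 kb, against 993 of 11119 tested genes with a length (8.93%). Over all nuclei the median log2 ratio at this length was 0.37 for members and 0.22 for all genes, and in pooled rods and cones it was 0.15 and 0.04. Epha10 (36.9 kb), Efnb2 (44.02 kb) and Plxna3 (15.62 kb) are shorter than the members' median of 47.5 kb, and Unc5c spans 369.7 kb.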

How the data were processed

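Single nuclei of whole retinas were captured with a PIPseq 3′ kit, and reads were processed with pipseeker 3.3.0 and aligned to GRCm39 per the labels and the submitters' processing notes. According to the study's methods, the authors removed ambient RNA with CellBender, imported the result into Monocle3 and filtered nuclei on transcripts and mitochondrial share. The gene annotation release and the strand setting used for counting are not given in the sources used here. Values in the deposited matrices are UMI counts, whole numbers for each gene in each nucleus. The per-nucleus totals listed by the authors matched these counts for all 7357 Cre- and all 6766 Tet tcKO nuclei, and ranged from 502 to 9957 and from 549 to 9981 UMIs. The mitochondrial percent of a nucleus is the authors' value, and the size factor per nucleus, a ratio, was also deposited. The deposited gene table gives a signal per genotype, the authors' mean over nuclei of scaled counts. None of these 3 was used for a level.

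The members and the lists were chosen with earlier results of these data known. The UMIs of a gene were added up over the nuclei of a population and scaled to the UMIs of all genes there, as CPM. Log2 ratios are Tet tcKO over Cre- with exact conditional 95% intervals, levels have exact Poisson and shares exact Clopper-Pearson intervals. In ratios 0 was replaced by 3 counts, and genes at 3 counts or fewer in both libraries got no ratio. PCR and preparation add error that these intervals do not hold. With 1 library per genotype no test between genotypes was possible, and the study's model over single nuclei was not repeated. A population was compared where its class passed the marker check and had at least 100 nuclei in both libraries, or as a cluster with at least 50 in both. Rods and cones were pooled although some of their clusters did not pass. In the marker check, the 10 leading genes of a cluster by fold could hold no more markers of a foreign class than of the annotated class. A cluster with 0 markers of both kinds therefore passed as well. Scrublet (scanpy 1.11.5) called 0 doublets in both libraries, so its calls were of no use here, and whether doublets are absent was not tested. As an alternative, the 502 and 418 nuclei with the highest 5% of doublet scores were left out.

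Named members were those called over all nuclei, the 3 highest and 3 lowest called in a population, those leading a class in Cre-, and ligand and receptor pairs known in the retina, 29 genes in all. Others are said to be named after their values were seen. All 67 members matched GENCODE vM39 by identifier and name, which gave positions on GRCm39. The same annotation gave promoter windows for 64 of them. Sums and intervals used pandas 2.3.3, scipy 1.17.1 and numpy 2.4.6 under Python 3.11.15, and TMM factors in R 4.3.3 with edgeR 4.0.16. The steps were tested on simulated data. Alternatives were other scalings (TMM and median-of-ratios factors, totals without mitochondrial UMIs), each gene counted once per nucleus, deeper or thinned nuclei, leaving out the nucleus with the most UMIs of a gene or the highest doublet scores, another floor, other minimums, and equal class shares.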

Additional observations from a re-analysis of the deposited data

How the results depend on the processing

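No paired analysis was possible because each genotype had 1 library, and for the same reason no replicate could be left out. Of 253 summary values under alternatives, 210 moved by less than their limit and 43 by more, and the cause was not tested. The counts of called members below stand without the share of all genes called in the same setting, which can move as well. They therefore do not set members apart from other genes. Over all nuclei 1 member, Epha10, was called higher with TMM or median-of-ratios factors, which moved the median of all genes by -0.11 under TMM, and 1 was called lower with a minimum of 1 CPM. In pooled rods and cones, 2 were called higher under either scaling (members' median 0.11 with TMM, 0.13 with median-of-ratios), 3 without mitochondrial UMIs in the total, 9 with nuclei thinned to 500 UMIs and 8 with a minimum of 1 CPM, which also gave 1 lower. In amacrine cells, 1 was called lower with either scaling, with nuclei of 1000 UMIs or more, without the nucleus with the most UMIs or without the highest doublet scores. There, counting each gene once per nucleus gave 5 higher and 0 lower, and a minimum of 1 CPM gave 5 higher. In RGCs, 2 were called higher with each gene counted once or a minimum of 1 CPM, 0 with a minimum of 20 CPM, and 1 lower after thinning. Thinning gave 1 lower in cluster 2, 2 higher in cluster 13, and 0 higher and 0 lower in cluster 31, where the ratio of Epha7 turned to -0.65. In cluster 31, nuclei of 1000 UMIs or more gave 0 lower, leaving out the highest doublet scores gave 2 lower, and leaving out the nucleus with the most UMIs gave 0 higher. Members leading a class in Tet tcKO numbered 5 with each gene counted once.

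Without thinning, Cre- and Tet tcKO shares of rods and cones were 11.5% and 51.1% for Epha10, 2.06% and 7.03% for Efnb2 and 2.52% and 10.7% for Plxna3. Those of RGCs were 23.5% and 33.8%, 3.53% and 7.67%, and 4.41% and 5.97%. The log2 ratio of Epha10 ran from 1.15 (each gene counted once) to 1.67 (thinned) over all nuclei. Efnb2 ran from 0.96 to 1.17 and was under 2-fold in 2 alternatives, and Plxna3 from 0.95 to 1.27 and was under 2-fold in 3. Unc5c was at 0.57 with each gene counted once. Of 1896 values of single genes under alternatives, 1816 kept their sign. The other CPM minimums leave a ratio unchanged and the other floor acts only at low counts, so part of these signs could not turn. Low counts limit Efnb1 in RGCs, Nrp1 in amacrine cells and most of cluster 13.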

Other observations

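Genes that act with these families, from lists of partners and signalling genes, were also counted over all nuclei. Of the semaphorin and plexin partners, 14 of 19 were tested, 1 was called higher and 0 lower, and the median log2 ratio was 0.15, the same as for all genes tested. Of the ephrin and Eph partners, 14 of 14 were tested, with 1 higher and 2 lower and a median of 0.14. Of the netrin partners, 14 of 16 were tested, with 2 higher and 0 lower and a median of 0.62, beside 0.15 for all genes tested. Of all genes tested over all nuclei, 3.18% were called higher and 2.48% lower. Nrcam, a cell adhesion molecule that takes part in semaphorin receptor complexes, stood at 183 CPM in the Cre- library and 380 CPM in Tet tcKO. The adhesion molecules Flrt2 and Flrt3, ligands of Unc5 receptors, stood at 29.6 and 59.8 CPM and at 9.56 and 21.2 CPM. Ptpn13, a phosphatase that binds ephrin-B, stood at 20.4 and 54.2 CPM. Lower in Tet tcKO were Rgs3, which binds ephrin-B and damps G protein signals (48.2 and 22.5 CPM), and Adam10, a protease that cleaves ephrins (131 and 64.8 CPM).

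Horizontal cells had 90 Cre- and 37 Tet tcKO nuclei and were not compared. Epha6 stood there at 543 CPM in the Cre- library and 1045 CPM in Tet tcKO, and Plxna4 at 234 and 441 CPM.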
